A study of Homo sapiens with 12 samples.

Results

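The genes described here are 10 members of the S100 family, S100P, S100A2, S100A4, S100A6, S100A9, S100A10, S100A11, S100A13, S100A14 and S100A16, taken by symbol from RNA sequencing values of PANC-1 cells. They are 10 of the 23284 gene symbols listed, and all 10 were among the 12946 genes tested. PANC-1 is a human pancreatic ductal carcinoma line. All cells of the study carried a retroviral reporter, the fluorescent protein ZsGreen fused to the degron of ornithine decarboxylase, which accumulates where proteasome activity is low. Degron (−) cells were the infected line, in which ZsGreen-positive cells were rare, and degron (++) cells were the brightest cells sorted from a line enriched by repeated sorting. Each population was sequenced without irradiation (0 Gy) at 48 h, and with 4 Gy at 30 h and at 48 h, with 2 libraries in each of these 6 groups and 12 in all. The labels do not give the start of the 30 h and 48 h. The titles of the 6 degron (−) libraries call them ZsGreen-negative, while their descriptions read d+, which in the study names the enriched line before the last sort. Both populations come from 1 cell line and the enrichment was made in 1 line, so reporter level and sorting history cannot be told apart. Nothing says that the 2 libraries of a group came from separate cultures, so the p-values measure the spread between these libraries, which may be technical.

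S100 proteins are small calcium-binding proteins with EF-hand motifs that mostly form dimers and have no enzyme activity of their own. Inside the cell they bind partners such as annexins, nonmuscle myosin and membrane scaffolds when calcium rises, and several are also released and act on receptors such as AGER (RAGE) and TLR4. Most of the genes lie together on chromosome 1, within the epidermal differentiation complex, and several of them are known from carcinomas of the pancreas.

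The values are FPKM, fragments scaled to exon length and to the number mapped, so levels can be set beside each other between genes. The number of reads behind them is unknown. Summed over genes, FPKM came to between 829654 and 916877 per library in degron (++) and to between 707273 and 763064 in degron (−), of which 1 small RNA gene, MIR622, held 28.6% to 30.0% and 22.5% to 27.1%. Of the epithelial carcinoma markers KRT8, KRT18, KRT19, KRT7, EPCAM and CDH1, 6 of 6 were measured in every library, with summed FPKM of 7184 to 8369 in degron (++) and 4226 to 5137 in degron (−). Lymphoid and endothelial markers did not pass the filter on low values. Differences between groups are log2 fold changes on the log2(FPKM + 1) scale, degron (++) minus degron (−) unless stated, with the standard error (SE) and the Benjamini-Hochberg adjusted p of limma over all genes tested. This scale understates the change of genes with low FPKM. In bulk libraries, fewer cells of a type and less RNA per cell cannot be told apart.

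The 250 bases before the RefSeq start of 4 members are shown because among the members these genes had the largest differences between the populations in each direction (S100A4 and S100A14), the highest level (S100A6) or the difference by time (S100A9). Coordinates and strands are those of RefSeq on GRCh38.p14, whereas the submitters' processing notes name hg19, so no value was placed by coordinate, and only the order of the genes was used with the values. Each line reads 5′ to 3′ on the strand of the gene, and capitals mark matches on either strand to the TATA box motif TATAAA, the E-box motif CAGGTG, the GC box motif GGGCGG or the AP-1 motif TGANTCA. The intervals are chr1:153545807-153546056 (minus strand) for S100A4, chr1:153535992-153536241 (minus strand) for S100A6, chr1:153357604-153357853 (plus strand) for S100A9 and chr1:153616326-153616575 (minus strand) for S100A14.
S100A4: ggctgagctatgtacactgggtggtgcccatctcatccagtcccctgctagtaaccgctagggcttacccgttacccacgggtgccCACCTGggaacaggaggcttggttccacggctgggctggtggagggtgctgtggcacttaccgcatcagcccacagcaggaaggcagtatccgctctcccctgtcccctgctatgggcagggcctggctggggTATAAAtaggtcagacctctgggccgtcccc
S100A6: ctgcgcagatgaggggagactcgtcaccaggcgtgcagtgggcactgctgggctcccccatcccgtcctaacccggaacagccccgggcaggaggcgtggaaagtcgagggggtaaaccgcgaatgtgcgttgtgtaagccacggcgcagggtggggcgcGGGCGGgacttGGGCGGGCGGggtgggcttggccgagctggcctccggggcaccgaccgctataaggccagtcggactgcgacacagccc
S100A9: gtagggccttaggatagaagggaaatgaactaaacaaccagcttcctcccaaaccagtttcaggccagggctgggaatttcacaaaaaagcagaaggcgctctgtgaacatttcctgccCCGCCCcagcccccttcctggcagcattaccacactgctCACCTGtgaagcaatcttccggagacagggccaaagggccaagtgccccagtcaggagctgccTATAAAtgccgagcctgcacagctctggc
S100A14: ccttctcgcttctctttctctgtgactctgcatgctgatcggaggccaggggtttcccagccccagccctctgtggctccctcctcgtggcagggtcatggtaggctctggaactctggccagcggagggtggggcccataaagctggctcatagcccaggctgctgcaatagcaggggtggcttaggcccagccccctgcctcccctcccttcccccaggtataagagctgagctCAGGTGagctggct

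S100A4 and S100A9, which differed between the populations in opposite directions, both held TATAAA, 31 and 29 bases before the start, and CAGGTG, 164 and 92 bases before it. S100A6 held 3 matches, the last pair overlapping, to GGGCGG, 90, 79 and 75 bases before its start, and no TATAAA. In S100A14 the match was to CAGGTG, 14 bases before the start. Over the 14 RefSeq starts of the 10 members, 4 members held TATAAA, 6 held CAGGTG, 6 held GGGCGG and 1, S100A2, held TGANTCA. Among 35116 RefSeq promoters of 250 bases, 10.7% held TATAAA, 17.5% CAGGTG, 42.6% GGGCGG and 6.57% TGANTCA. A member was counted if any of its starts held the motif, whereas these shares count single promoters. The counts and shares thus differ in unit and show no excess or lack among the members. A match is a description of these letters and not a binding site.

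The populations differed in most S100 members, and the members went both ways. In unirradiated cells at 48 h, 6 of 10 members were higher in degron (++) cells (S100A9, S100A10, S100A11, S100A13, S100A14 and S100A16) and 3 were lower (S100A4, S100A6 and, less firmly, S100A2, which lost the call in 5 alternative fits), where 77.7% of all genes tested passed the threshold, 37.6% higher and 40.2% lower. With 4 Gy, 6 members were higher and 2 lower at 30 h, beside 79.1% of all genes (38.3% higher and 40.8% lower). The counts were again 6 and 2 at 48 h, beside 76.7% (37.1% higher and 39.6% lower). The counts of members are thus to be read against a background in which most genes differ. The median log2 fold change of the 10 members was 0.59, 0.61 and 0.48 in the 3 conditions, against -0.02, -0.02 and -0.01 over all genes. This median depends on which S100 genes are members. The 3 other S100 genes tested were all lower in unirradiated cells, with a median of -1.73. Of these, S100A1 and S100A5 passed the filter only through degron (−) libraries, so their direction and this median are not independent of the filter. Of the 12 S100 genes tested on chromosome 1, 6 were higher and 6 lower in unirradiated cells, with a median of 0.08. The 6 lower genes include S100A1 and S100A5, so this split is not independent of the filter either. Among the members, the largest differences in unirradiated cells were an 8.90-fold higher mean FPKM of S100A14 and a 4.17-fold lower mean FPKM of S100A4 in degron (++).

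**Figure D1:**
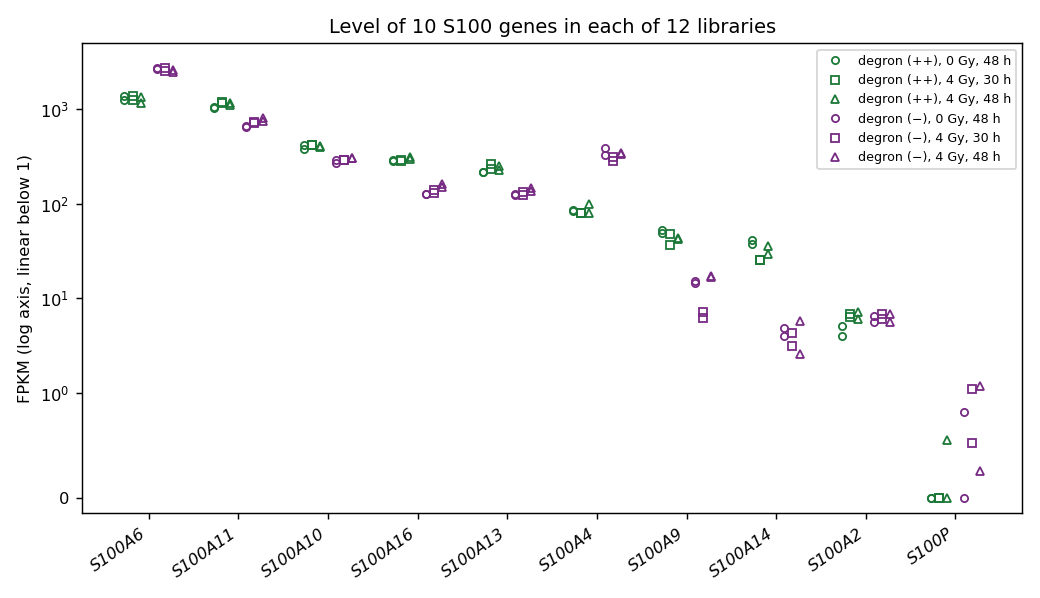
FPKM of the 10 S100 genes (y axis, logarithmic above 1 and linear below) in each of the 12 libraries. Green points are degron (++) and purple points degron (−) libraries, with circles for 0 Gy at 48 h, squares for 4 Gy at 30 h and triangles for 4 Gy at 48 h. For S100A6 and S100A4 the degron (−) points lie above the degron (++) points, for S100A9, S100A10, S100A11, S100A13, S100A14 and S100A16 below them, and for S100A2 and S100P the points overlap.

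S100A4, also called metastasin, binds nonmuscle myosin and is a known marker of migrating and mesenchymal cells. Its FPKM in degron (++) cells was 84.9 and 87.0 without irradiation, 79.2 and 80.0 with 4 Gy at 30 h, and 79.2 and 98.7 with 4 Gy at 48 h. The degron (−) libraries gave 388 and 329, 287 and 312, and 338 and 347 in the same order. The highest degron (++) library stayed far below the lowest degron (−) library. The log2 fold change of S100A4 was -2.04 (SE 0.10, adjusted p = 1.33e-07, limma) without irradiation, -1.90 (adjusted p = 1.86e-07) with 4 Gy at 30 h and -1.94 (adjusted p = 2.17e-07) with 4 Gy at 48 h. In unirradiated cells, 4.65% of the genes tested had a lower fold change. Of 7 fibroblast markers, COL1A1 (0.531 to 0.826 FPKM in degron (++), 36.5 to 52.3 in degron (−)) and LUM (13.8 to 24.7 and 0.290 to 1.60) passed the filter, in opposite directions, and the sum of the 7 lay between 14.5 and 25.4 for degron (++) and between 37.2 and 53.9 for degron (−). COL1A1 passed the filter only through degron (−) libraries, so its direction is not independent of the filter. The part of these markers in the difference of S100A4 was not tested. In RefSeq, S100A4 and S100A5 overlap, so reads in the overlap cannot be assigned with certainty.

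S100A6, or calcyclin, binds annexins and the calcyclin-binding protein CACYBP, and it was the most abundant of the members in every library of degron (−) cells. It read 1267 and 1383 FPKM in unirradiated degron (++) cells, 1374 and 1264 with 4 Gy at 30 h, and 1163 and 1340.5 with 4 Gy at 48 h. The corresponding degron (−) values were 2713 and 2675, 2541 and 2732, and 2634 and 2509. The 2 sets did not overlap, and S100A6 ranked from 12 to 16 among all genes by FPKM in degron (−) libraries and from 57 to 68 in degron (++) libraries. Its log2 fold change was -1.02 (SE 0.08, adjusted p = 2.23e-06), -0.999 (adjusted p = 2.39e-06) and -1.04 (adjusted p = 2.21e-06) in the 3 conditions, and its mean FPKM was 2.03-fold, 1.999-fold and 2.05-fold lower in degron (++).

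S100A2, an S100 protein of basal epithelia, was low in all libraries. The degron (++) values were 4.03 and 5.12 FPKM without irradiation, 6.39 and 6.81 with 4 Gy at 30 h, and 5.99 and 7.14 with 4 Gy at 48 h, and the degron (−) values were 6.44 and 5.66, 6.07 and 6.84, and 5.65 and 6.81. Only the unirradiated groups did not overlap. There the log2 fold change was -0.34 (SE 0.13, adjusted p = 0.0315), and it was 0.03 (adjusted p = 0.843) and 0.07 (adjusted p = 0.651) with 4 Gy at 30 h and 48 h. The signs of the last pair of values changed when each library was rescaled to a common sum, to -0.22 and -0.17. Without degron (++) replicate 1 the unirradiated difference was -0.20 (adjusted p = 0.216), and without degron (−) replicate 1 it was -0.26 (adjusted p = 0.159). The call was also lost with no filter (adjusted p = 0.0504), with quantile normalization (-0.27, adjusted p = 0.0827) and when fitted without the other 8 libraries (adjusted p = 0.0652).

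S100A10 (p11) has lost calcium binding, forms a stable complex with annexin A2 and holds plasminogen at the cell surface. FPKM of S100A10 was 384 and 422 in unirradiated degron (++) cells, 422 and 419.7 with 4 Gy at 30 h, and 398 and 405 with 4 Gy at 48 h. Its degron (−) libraries stood at 273 and 293, 290.2 and 289, and 306 and 303. Every degron (++) library exceeded every degron (−) library, with log2 fold changes of 0.51 (SE 0.05, adjusted p = 9.93e-06), 0.54 (adjusted p = 6.17e-06) and 0.40 (adjusted p = 5.69e-05). With each library rescaled to a common sum of FPKM, these were 0.30, 0.25 and 0.13, the last with an adjusted p of 0.0757.

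S100A11 (calgizzarin), a binding partner of annexin A1, was the second most abundant member by mean level in both populations. In degron (++) 4 Gy 48 h replicate 1 it was above S100A6, at 1178 against 1163 FPKM. Unirradiated degron (++) cells gave 1044 and 1069.8 FPKM, cells with 4 Gy gave 1161 and 1191 at 30 h, and 1178 and 1119 at 48 h. For degron (−) cells the values were 673 and 647, 738 and 719, and 756 and 801. The populations did not overlap, and the log2 fold change was 0.68 (SE 0.04, adjusted p = 6.97e-07), 0.69 (adjusted p = 5.57e-07) and 0.56 (adjusted p = 2.84e-06). Quantile normalization, which gives all libraries the same distribution of values, lowered these to 0.41, 0.30 and 0.16, the last with an adjusted p of 0.0236. RefSeq lists 10 S100A11 pseudogenes, of which 0 have values in the files, so reads shared with them make the level of S100A11 less certain.

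S100A13 takes part in the release of FGF1 and interleukin 1 alpha without a signal peptide. It was measured at 218 and 219 FPKM in unirradiated degron (++) cells, 263 and 234 with 4 Gy at 30 h, and 226 and 249 with 4 Gy at 48 h. Degron (−) libraries had 123 and 126, 124 and 132, and 136 and 147 FPKM. The gap between the populations was wider than the spread within either, with log2 fold changes of 0.81 (SE 0.07, adjusted p = 4.31e-06), 0.95 (adjusted p = 1.3e-06) and 0.74 (adjusted p = 8.27e-06), the last being 0.48 after rescaling to a common sum.

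S100A16 is a widely expressed member and the neighbour of S100A14 on the chromosome. In degron (++) libraries S100A16 had 286 and 290.1 FPKM without irradiation, 285 and 292 with 4 Gy at 30 h, and 301 and 316 with 4 Gy at 48 h. Its levels in degron (−) libraries were 129 and 127, 141 and 131, and 150.2 and 161. No library of one population entered the range of the other. The log2 fold change was 1.17 (SE 0.05, adjusted p = 3.23e-08), 1.08 (adjusted p = 4.32e-08) and 0.98 (adjusted p = 1.04e-07).

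S100A14, a member found mainly in epithelia, showed the largest difference among the 10 members. Degron (++) cells had 41.1 and 37.6 FPKM without irradiation, 25.6 and 25.3 with 4 Gy at 30 h, and 29.5 and 36.0 with 4 Gy at 48 h. Degron (−) cells had 4.83 and 4.01, 3.15 and 4.30, and 2.58 and 5.75 FPKM. The ranges were well apart, and of the degron (−) groups the one with 4 Gy at 48 h had the widest spread. The log2 fold change of S100A14 was 2.90 (SE 0.25, adjusted p = 5.88e-06), 2.495 (adjusted p = 1.54e-05) and 2.77 (adjusted p = 8.75e-06), and in unirradiated cells it held rank 76 from the top among the 12946 genes. Of the 6 epithelial markers, KRT18, KRT7, EPCAM and CDH1 were also higher in degron (++) cells in each condition and under each alternative run. KRT8 was higher by 0.48 (adjusted p = 0.0001) in unirradiated cells but lost the call with quantile normalization (adjusted p = 0.0655). KRT19, higher by 0.17 (adjusted p = 0.0297) in unirradiated cells, lost the call in 6 alternative fits and changed sign to -0.04 after rescaling to a common sum and to -0.05 with quantile normalization. Their part in the difference of S100A14 was not tested.

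S100A9 is known from neutrophils and monocytes, where it pairs with S100A8 as calprotectin, and from stressed epithelia. Its FPKM in degron (++) cells was 48.7 and 52.5 without irradiation, 36.6 and 47.4 with 4 Gy at 30 h, and 43.9 and 42.2 with 4 Gy at 48 h. Degron (−) cells read 15.2 and 14.6, 6.20 and 7.22, and 16.7 and 17.2. All degron (++) libraries were above all degron (−) libraries, and the 2 degron (−) libraries at 30 h were the lowest of the 12. The log2 fold change of S100A9 was 1.70 (SE 0.11, adjusted p = 6.92e-07), 2.47 (adjusted p = 5.21e-08) and 1.29 (adjusted p = 4.88e-06). S100A8 was listed at 0 in all 12 libraries. Of 8 myeloid markers, CD14 (1.45 to 1.92 FPKM in degron (++), 0.187 to 1.02 in degron (−)) and CD68 (2.91 to 4.62 and 124 to 165) passed the filter. The sum of all 8 lay between 4.52 and 6.49 for degron (++) and between 125 and 166 for degron (−) and was nearly all CD68. CD14 went the way of S100A9 and CD68 the other way. CD14 passed the filter only through degron (++) libraries, so its direction is not independent of the filter. The part of these markers in the difference of S100A9 was not tested. Below the filter, ITGAM had 0.358 to 0.895 FPKM in degron (−) libraries and at most 0.018 in degron (++) libraries, opposite in direction to S100A9. CSF1R reached at most 0.11 FPKM in degron (++) and 0.088 in degron (−). PTPRC and LYZ reached at most 0.055 and 0.074 FPKM, and MPO and FCGR3A were listed at 0 throughout.

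S100P, a known marker of pancreatic carcinoma that binds ezrin and AGER, was at the floor of these data. It was listed at 0 in 5 of 6 degron (++) libraries and at 0.549 FPKM in 1 library with 4 Gy at 48 h. Degron (−) libraries listed 0.818 and 0 without irradiation, 0.523 and 1.10 with 4 Gy at 30 h, and 1.18 and 0.254 with 4 Gy at 48 h. S100P passed the filter only through the pair of degron (−) values above 1. The groups overlapped, and the log2 fold changes were -0.43 (adjusted p = 0.28), -0.84 (adjusted p = 0.0501) and -0.41 (adjusted p = 0.307).

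**Figure D2:**
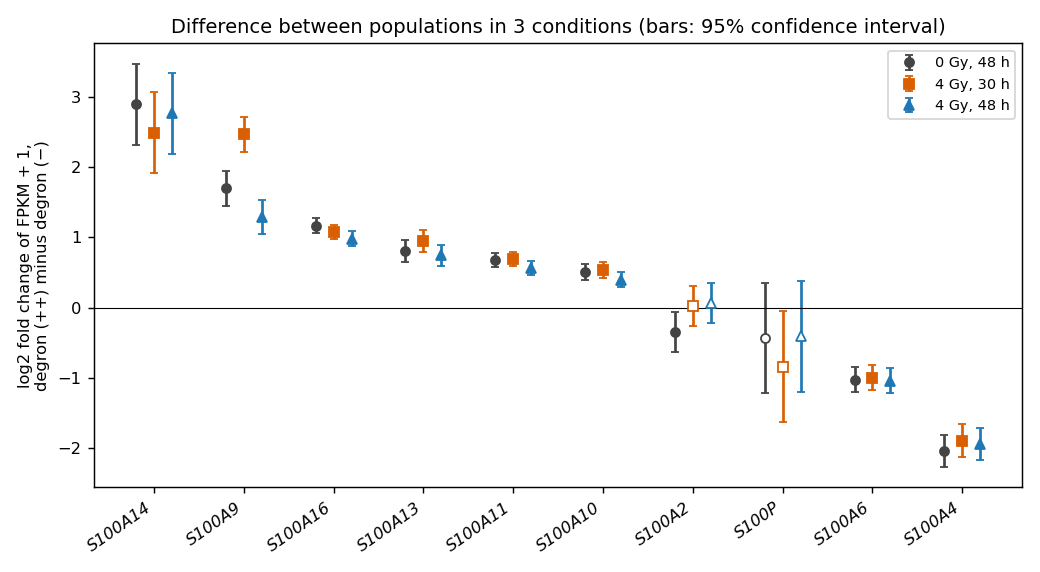
Log2 fold change of FPKM + 1, degron (++) minus degron (−) (y axis), for each S100 gene (x axis) in 3 conditions, with bars for the 95% confidence interval of limma; open markers have an adjusted p of 0.05 or more. S100A14 and S100A9 lie highest, S100A6 and S100A4 lowest, and the 3 conditions lie close together except for S100A9, at 2.47 with 4 Gy at 30 h and 1.29 with 4 Gy at 48 h.

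With all 3 conditions together, 6 members passed the threshold in each condition with all 6 degron (++) libraries above all 6 degron (−) libraries, and 2 members, S100A4 and S100A6, did so the other way. Over all genes tested, 32.1% met the first criterion, 34.9% the second and 67% either, and in 71.3% the 6 and 6 libraries did not overlap.

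The make-up of the family differed between the populations as well. The summed FPKM of the 10 members lay between 3379 and 3653 for degron (++) and between 4138 and 4347 for degron (−). S100A6 made up 34.0% to 38.8% of this sum in degron (++) and 58.4% to 63.4% in degron (−), and S100A4 2.17% to 2.73% and 6.95% to 8.96%. S100A11 had a share of 30.0% to 34.4% in degron (++), against 15.3% to 18.6% in degron (−). By level, the order in degron (++) was S100A6, S100A11, S100A10, S100A16, S100A13, S100A4, S100A9, S100A14, S100A2 and S100P, in which S100A6 and S100A11 overlapped, as did S100A9 and S100A14. In degron (−) the order was S100A6, S100A11, S100A4, S100A10, S100A16, S100A13, S100A9, S100A2, S100A14 and S100P. There the ranges of S100A4 and S100A10 overlapped, as did those of S100A16 and S100A13, of S100A9 and S100A2, and of S100A2 and S100A14.

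**Figure D3:**
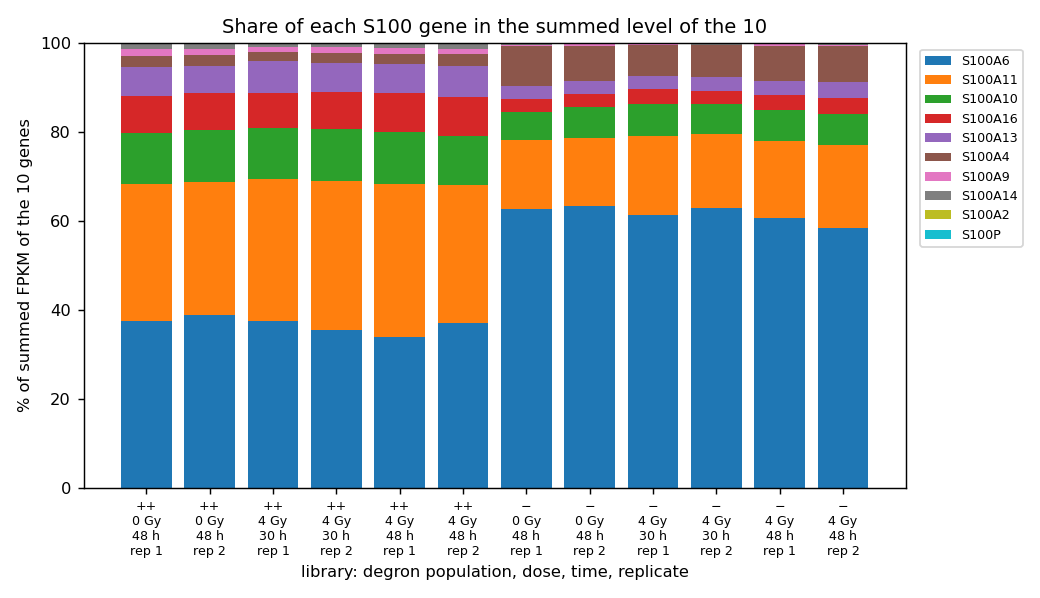
Share of each S100 gene in the summed FPKM of the 10 genes (y axis, percent) for each of the 12 libraries (x axis, by population, dose, time and replicate). S100A6 takes 34.0% to 38.8% of the bar in the 6 degron (++) libraries and 58.4% to 63.4% in the 6 degron (−) libraries, and S100A4 is the wider band in degron (−).

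Of the members, 9 lie on chromosome 1 and S100P on chromosome 4. In RefSeq order, the members and the other S100 genes on chromosome 1 formed stretches of like direction in unirradiated cells. S100A10 and S100A11 were higher in degron (++), as were FLG, IVL and S100A9, the next genes tested. The contiguous S100A6, S100A5, S100A4, S100A3 and S100A2 were lower, with log2 fold changes of -1.02, -0.99, -2.04, -2.05 and -0.34. The next 3 genes, S100A16, S100A14 and S100A13, were higher, at 1.17, 2.90 and 0.81, and S100A1 after them was lower again at -1.73. Outside the cluster, the nearest tested genes before S100A10 were THEM4 (-0.67) and TDRKH (-1.23), and the nearest after S100A1 were CHTOP (-0.07, adjusted p = 0.294) and SNAPIN (-0.12, adjusted p = 0.128). Of the 10 tested genes before the cluster, 2 were higher and 6 lower with a median of -0.33, and of the 10 after it 3 were higher and 3 lower with a median of -0.10, beside 37.6% and 40.2% of all genes. S100A5 and S100A1 passed the filter only through degron (−) libraries, so their direction is not independent of it and adds nothing to the stretches. S100A2 lost its call in 5 alternative fits, and S100A5 overlaps S100A4. Whether such stretches are more frequent here than elsewhere in the genome was not tested. RefSeq has S100A13 and S100A1 overlapping on opposite strands, and whether the counting used strand is not given in the sources used here, so their reads cannot be told apart in the overlap.

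**Figure D4:**
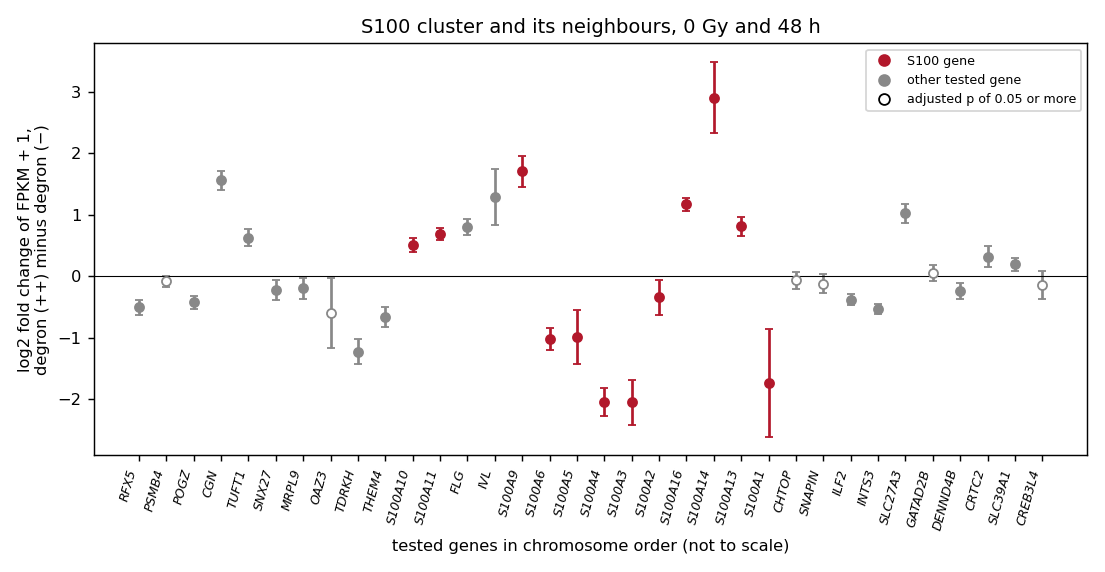
Log2 fold change of FPKM + 1, degron (++) minus degron (−) at 0 Gy and 48 h (y axis), for the tested genes in chromosome order (x axis, not to scale), with S100 genes in red, other genes in grey, 95% confidence intervals as bars and open markers for an adjusted p of 0.05 or more. The red points go from above 0 (S100A10, S100A11, S100A9) to below it (S100A6 to S100A2), above it (S100A16, S100A14, S100A13) and below it (S100A1).

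Outside the 10 members, 11 S100 genes were listed and 3 passed the filter, all at low levels. S100A1 and S100A5 passed it only through degron (−) libraries, so their direction is not independent of the filter. S100A3, an S100 protein of the hair cuticle, had 1.08 to 1.91 FPKM over the degron (++) libraries and 8.70 to 16.2 over the degron (−) libraries, with log2 fold changes of -2.05 (SE 0.16, adjusted p = 2.98e-06), -2.59 (adjusted p = 5.5e-07) and -2.70 (adjusted p = 5.26e-07). For S100A1, known from heart and skeletal muscle, the ranges were 0 to 1.60 and 2.16 to 5.75 FPKM, and the log2 fold changes -1.73 (adjusted p = 0.00264), -1.84 (adjusted p = 0.00177) and -1.21 (adjusted p = 0.0176). S100A5 had 0.164 to 0.529 and 0.472 to 1.70 FPKM, and its ranges overlapped. Its log2 fold changes were -0.99 (adjusted p = 0.00123), -0.33 (adjusted p = 0.14) and -0.55 (adjusted p = 0.0262). S100A7, S100A7A, S100A7L2, S100A8, S100B and S100G were listed at 0 in all 12 libraries, and S100A12 and S100Z stayed at or below 0.374 FPKM.

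Of 7 fused S100 genes, which join an S100 domain to a long repeat region, only FLG (filaggrin, a structural protein of the cornified skin) passed the filter. Its FPKM was 14.2 and 12.98, 15.96 and 15.5, and 16.5 and 15.8 in degron (++) cells, and 7.08 and 7.61, 8.08 and 8.23, and 13.01 and 13.7 in degron (−) cells, in the same order of conditions. The degron (−) libraries with 4 Gy at 48 h stood above the other degron (−) libraries. FLG differed between the populations by 0.80 (SE 0.06, adjusted p = 1.44e-06), 0.87 (adjusted p = 7.61e-07) and 0.25 (adjusted p = 0.00305) on the log2 scale. With each library rescaled to a common sum, the last value was 0.01 (adjusted p = 0.954). Of 26 genes of the cornified envelope in the same complex, IVL (involucrin) alone passed the filter, with a log2 fold change of 1.29 (adjusted p = 0.000312) at 0.133 to 1.67 FPKM in degron (−) and 2.19 to 4.64 in degron (++).

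Proteins that S100 members bind were also measured. Of 11 annexins tested, 6 were higher and 4 lower in unirradiated degron (++) cells, beside 37.6% and 40.2% of all genes, with a median log2 fold change of 0.19. Of the 11, ANXA6, ANXA8L1 and ANXA8L2 passed the filter only through the population in which they were higher. ANXA1, the partner of S100A11, was higher by 1.67 (SE 0.06, adjusted p = 1.32e-08), as S100A11 was. ANXA2, the partner of S100A10, differed by 0.05 (adjusted p = 0.28) in unirradiated cells. This sign changed to -0.16 (adjusted p = 0.0244) after rescaling to a common sum and to -0.17 (adjusted p = 0.0101) with quantile normalization. With 4 Gy, ANXA2 had 633 and 656 FPKM in degron (++) against 496 and 518 in degron (−) at 30 h. At 48 h it had 680 and 695 against 554 and 600. In unirradiated cells ANXA11, which binds S100A6, was higher by 0.19 (adjusted p = 0.0023) but -0.02 after rescaling to a common sum. ANXA3 had the largest rise, 2.38, and ANXA6 the largest fall, -4.92, from 28.6 to 35.2 FPKM in degron (−) to at most 0.066 in degron (++).

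Of 13 other intracellular partners tested, 5 were higher and 8 lower, beside the same 37.6% and 40.2% of all genes, with a median of -0.46. Of these, SYT1 passed the filter only through degron (−) libraries. MYH9, the myosin heavy chain that S100A4 binds, had a log2 fold change of -0.46 (adjusted p = 2.51e-06), and AHNAK, the scaffold of S100A10 and annexin A2, one of -0.82 (adjusted p = 1.04e-07). CACYBP was higher by 0.42 (adjusted p = 4.84e-05), opposite in sign to S100A6. The S100P partners EZR and IQGAP1 were higher by 0.28 (adjusted p = 3.49e-05) and 0.16 (adjusted p = 0.0113), and S100PBP was lower at -0.74 (adjusted p = 1.92e-06). After rescaling to a common sum, EZR was at 0.07 (adjusted p = 0.202) and IQGAP1 at -0.04, and IQGAP1 also lost the threshold without degron (++) replicate 1 (adjusted p = 0.0654) and without degron (−) replicate 1 (adjusted p = 0.0834). IL1A, released with the help of S100A13, had the largest rise (0.67). Its ranges over all conditions were low and overlapped, 2.54 to 6.06 FPKM in degron (++) and 1.06 to 2.85 in degron (−).

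Among 4 receptors tested, 3 were higher and 1 lower in unirradiated degron (++) cells, where 77.7% of all genes passed in one direction or the other. TLR4 was higher by 1.41 (SE 0.09, adjusted p = 8.29e-07) at 4.26 to 6.02 FPKM against 0.930 to 1.47, and AGER by 0.67 (adjusted p = 0.00406) with ranges that overlapped, 1.44 to 2.92 and 0.910 to 2.41 FPKM. BSG (basigin), which binds S100A9, was lower at -0.74 (adjusted p = 1.47e-07). Of 5 genes of the plasminogen system, which S100A10 serves at the cell surface, 2 were higher and 2 lower, a share near that of all genes (77.7%). The receptor PLAUR was higher by 2.08 (adjusted p = 3.04e-09) and the activator PLAT by 0.48 (adjusted p = 0.00639), while the activator PLAU was lower at -0.62 (adjusted p = 4.61e-07). PLAT had ranges over all conditions that overlapped, 1.99 to 3.185 FPKM in degron (++) and 1.20 to 2.505 in degron (−).

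Irradiation changed few of the members. With 4 Gy against 0 Gy at 48 h, 0 of 10 members passed the limma threshold in degron (++) cells, beside 1.82% of all genes (1.42% upward and 0.402% downward), and 2 members had an unadjusted p under 0.05. These were S100A2, with a difference of 0.44 (SE 0.13, adjusted p = 0.12), and S100A11, with 0.12 (adjusted p = 0.204). No alternative fit called a member there. In degron (−) cells 2 of 10 members rose, S100A16 by 0.28 (SE 0.05, adjusted p = 0.0136) and S100A11 by 0.24 (SE 0.04, adjusted p = 0.0208), beside 4.73% of all genes (3.85% upward and 0.873% downward). Both lost the threshold without degron (−) 0 Gy replicate 2 and without degron (−) 4 Gy 48 h replicate 2, with adjusted p of 0.0814 and 0.0964 for S100A16 and of 0.117 and 0.129 for S100A11. They also lost it with each library rescaled to a common sum and when fitted without the other 8 libraries. The test of the difference between the populations in the response to 4 Gy called 0 of 10 members with limma, beside 0.0772% of all genes (0.0232% upward and 0.0541% downward), and 3 had an unadjusted p under 0.05 (S100A2, S100A9 and S100A16). No alternative fit called a member in that test. Outside the members, S100A3 rose by 0.72 in degron (−) cells (adjusted p = 0.0448), which did not pass in any of the 4 fits without 1 library (adjusted p from 0.0991 to 0.200), and FLG rose by 0.78 (adjusted p = 0.000637, or 0.114 on only the libraries compared).

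**Figure D5:**
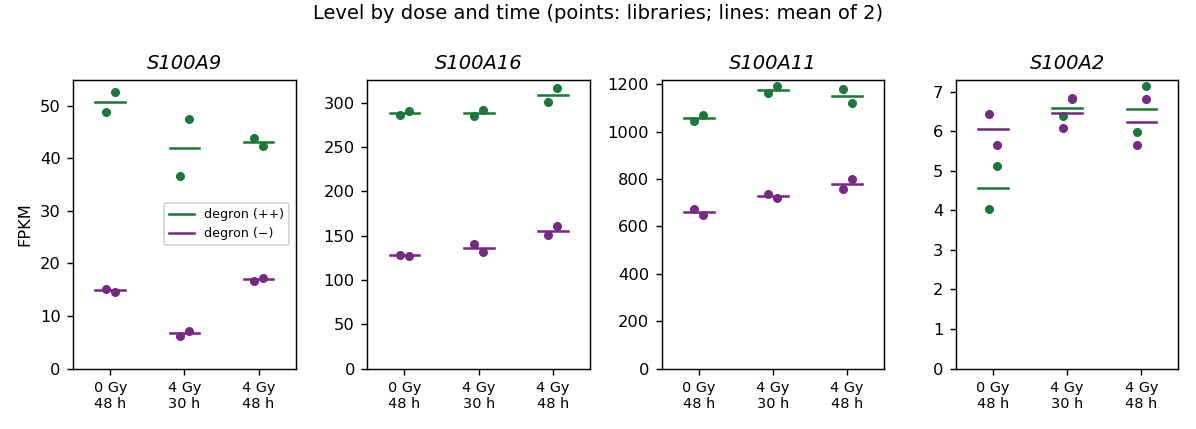
FPKM (y axes, each from 0) of S100A9, S100A16, S100A11 and S100A2 by dose and time (x axes) in degron (++) (green) and degron (−) (purple) cells, with points for libraries and lines for the mean of 2. The degron (−) points of S100A9 at 4 Gy and 30 h, 6.20 and 7.22, lie below those at 48 h, while those of S100A16 and S100A11 are highest with 4 Gy at 48 h.

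Between the 30 h and 48 h groups with 4 Gy, S100A9 was the member that differed most. There was no 0 Gy group at 30 h, so irradiation and time in culture cannot be told apart in this comparison. At 48 h, S100A9 in degron (−) cells differed between 4 Gy and 0 Gy by 0.18 (limma, adjusted p = 0.394). In degron (++) cells 0 of 10 members passed the limma threshold, beside 1.21% of all genes (0.657% upward and 0.548% downward), 0 had an unadjusted p under 0.05, and no alternative fit called one. S100A9 in degron (−) cells was higher at 48 h than at 30 h by 1.22 (SE 0.11, adjusted p = 0.000645), and S100A16 by 0.19 (SE 0.05, adjusted p = 0.0418). Thus 2 of 10 members were higher at 48 h, beside 7.18% of all genes (6.01% upward and 1.17% downward). The call of S100A16 was lost without degron (−) 4 Gy 30 h replicate 1 (adjusted p = 0.0629), without 30 h replicate 2 (adjusted p = 0.208) and without 48 h replicate 2 (adjusted p = 0.251). This comparison shares the 4 Gy 48 h libraries with that of 4 Gy against 0 Gy. Fitted on only the libraries compared, the difference of S100A9 had an adjusted p of 0.0517. The difference in this change between the populations was tested as an interaction, which called 1 of 10 members, beside 3.23% of all genes (0.51% upward and 2.72% downward). For S100A9 this interaction was -1.18 (95% confidence interval -1.53 to -0.83, adjusted p = 0.00971), and the 48 h and 30 h groups of degron (++) cells differed by 0.05 (adjusted p = 0.898). Over the other settings it was -1.28 to -1.17 and over the fits without 1 library -1.36 to -0.996, and it passed the threshold in each.

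Other genes were also lowest in the degron (−) libraries at 30 h. Among the epithelial markers, KRT7 stood at 133 and 144 FPKM in these, against 199 and 173 without irradiation and 233 and 273 with 4 Gy at 48 h. EPCAM stood at 29.9 and 31.9, against 37.4 and 37.6, and 44.8 and 52.8, and CDH1 at 6.56 and 6.79, against 8.36 and 7.69, and 11.7 and 12.8. By the same test these 3 of the 6 markers were higher at 48 h than at 30 h in degron (−) cells, by 0.86, 0.64 and 0.79, and 0 of the 6 passed in degron (++) cells, beside 6.01% and 0.657% of all genes. After rescaling to a common sum, KRT8 and KRT18 also passed in degron (−) cells (limma, adjusted p = 0.0258 and 0.0412). They did so with quantile normalization as well (limma, adjusted p = 0.0483 and 0.0105). Fitted without the other 8 libraries, none of KRT7, EPCAM and CDH1 passed (adjusted p from 0.0723 to 0.0963). The interaction of time and population passed for KRT7, EPCAM and CDH1, at -0.96, -0.69 and -0.76. This call was lost for KRT7 without degron (++) 4 Gy 30 h replicate 1 and for EPCAM without degron (++) 4 Gy 30 h replicate 2. KRT7, EPCAM and CDH1 were also higher with 4 Gy than with 0 Gy at 48 h in degron (−) cells, by 0.44, 0.37 and 0.56. S100A11 and S100A16 rose there too, as did 3.85% of all genes. CDH1 lost this call when fitted on only the libraries compared (limma, adjusted p = 0.141). KRT7 and EPCAM lost this call in 4 alternative fits each, with adjusted p of 0.158 and 0.0979 without 0 Gy replicate 2, 0.177 and 0.0555 without 4 Gy 48 h replicate 2 and, for EPCAM, 0.0762 without 0 Gy replicate 1. The part of these markers in the changes of S100A9, S100A11 and S100A16 was not tested.

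For 9 of the members, the tested gene outside the family with the most similar profile was found as the one with the smallest root mean square difference of centred log2(FPKM + 1) over the 12 libraries. It was SHB for S100A6 (0.0514), CTXN1 for S100A4 (0.116), TUBB6 for S100A2 (0.0962), PADI3 for S100A9 (0.212) and SORBS2 for S100A14 (0.181). It was KANSL2 for S100A11 (0.0432), FAM210A for S100A13 (0.0509), TGFBR2 for S100A16 (0.0510) and KIF7 for S100P (0.251). S100P was at the floor of these data and had the largest distance of the 9, so its nearest gene says little.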

How the data were processed

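The deposited values are FPKM per gene symbol, 1 file a library, which the authors made from poly(A) RNA with a stranded kit. The submitters' processing notes name TopHat2 2.1.1, Bowtie2 2.2.8, SAMtools 0.1.18, Cuffdiff 2.2.1 and hg19, with no role or order. The annotation and whether strand was used in counting are not given in the sources used here. Since FPKM carry no counts, depth is unknown and counting error was not estimated. A value of 0 is reported only as listed at 0.

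Groups were taken from the library titles. Log2(FPKM + 1) was tested with limma 3.58.1 (6 group means over 12 libraries, eBayes with trend) in R 4.3.3, on genes that reached an FPKM of 1 in 2 or more libraries, and genes passed at an adjusted p (Benjamini-Hochberg) under 0.05. The study describes a Student test in general and no model for these libraries. The fit was tested on simulated data in which known genes were changed. Alternatives were a pseudocount of 0.1, no filter, a filter at FPKM 5, rescaling to a sum of 1000000 (TPM) with and without MIR622, quantile normalization, no trend, a replicate block, only the libraries compared, and leaving out each library.

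All members, the other S100 genes that passed the filter, the known partners and the largest rise and fall per list are named, except for some genes that are not reported here. The members and lists were chosen with earlier results of these data known. Gene order and promoters are from RefSeq on GRCh38.p14, in which all 10 members had a row. Python 3.11.15, numpy 2.4.6, pandas 2.3.3 and matplotlib 3.10.9 were used.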

Additional observations from a re-analysis of the deposited data

Results flagged for a closer look

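The change of S100A9 from 30 h to 48 h with 4 Gy differed between the populations by -1.18 on the log2 scale (limma interaction, adjusted p = 0.00971). Degron (−) libraries were at 6.20 and 7.22 FPKM at 30 h and at 16.7 and 17.2 FPKM at 48 h. Degron (++) libraries were at 36.6 and 47.4 and at 43.9 and 42.2 FPKM in the same order. No 0 Gy group was sequenced at 30 h. KRT7, EPCAM and CDH1 were also lower at 30 h in degron (−) cells, and their part in the result was not tested.

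The same difference was -0.62 for FLG (adjusted p = 0.00996), which was at 8.08 and 8.23 FPKM at 30 h and at 13.01 and 13.7 FPKM at 48 h in degron (−) cells. Without degron (++) 4 Gy 30 h replicate 1 the adjusted p of FLG was 0.0514.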

How the results depend on the processing

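The count of members called for 4 Gy against 0 Gy in degron (−) cells, 2, became 0 under TPM rescaling, 1 under TPM rescaling without MIR622, 0 with only the libraries compared, and 0 to 2 when 1 library was left out. For 48 h against 30 h in degron (−) cells the count of 2 became 1 with no filter, under TPM rescaling with and without MIR622, and with eBayes without trend. It was 0 with only the libraries compared and 1 to 2 when 1 library was left out. The counts of the other comparisons stayed within 1.5 times the reported one under each alternative run. The sign of S100A2 changed at 4 Gy 30 h to -0.22 (TPM), -0.12 (TPM without MIR622) and, over the left-out libraries, to a range of -0.046 to 0.10. At 4 Gy 48 h it changed to -0.17, -0.11 and a range of -0.050 to 0.18. In unirradiated cells ANXA2 changed sign to -0.16 (TPM), -0.066 (TPM without MIR622) and -0.17 (quantile), and ANXA11 and IQGAP1 to -0.022 and -0.042 (TPM). TPM rescaling moved the median over all genes tested, on the log2 scale, from -0.02, -0.02 and -0.01 to -0.21, -0.27 and -0.25, and the share of called genes that were higher in degron (++) from 48.3%, 48.5% and 48.3% to 35.9%, 33.3% and 31.7%. S100P was not tested with a filter at FPKM 5. Its difference at 4 Gy 30 h passed the threshold under a pseudocount of 0.1, both TPM rescalings and with only the libraries compared (adjusted p = 0.0336, 0.0348, 0.0377 and 0.0119). S100P was at the floor and passed the filter only through degron (−) libraries, so the direction of its difference is not independent of the filter. The causes of these changes were not tested.

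The replicate numbers showed little sign of pairing the libraries across groups, though the labels do not say whether libraries of one number were handled together. The difference between replicates 1 and 2 correlated between groups at -0.04 to 0.12 (median 0.04) over 15 pairs of groups, across genes. With the replicate block, 48 h against 30 h in degron (−) cells called 1 member, since S100A16 had an adjusted p of 0.0601, and the block changed no other call of a member.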
